A study of Mus musculus with 24 samples.

Results

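The antioxidant and glutathione enzymes of the mouse choroid plexus were followed as 1 group of genes, chosen by symbol. The rule took the alpha, mu, pi, theta, omega, kappa, zeta and microsomal glutathione transferases, the glutathione peroxidases, the peroxiredoxins, genes whose symbol starts with Txn, and the superoxide dismutases Sod1, Sod2 and Sod3. It added Cat, Gclc, Gclm, Gss, Gsr, Nqo1, Hmox1, Hmox2 and Srxn1. A gene entered when a probe had a detection p-value under 0.01 on at least 3 arrays, and its brightest such probe stood for it. This gave 48 members among the 8232 genes measured on these arrays. Of 65 symbols with a named probe, 17 fell below the filter: 16 were detected on no array, among them Gclc, the catalytic subunit of glutamate-cysteine ligase, and Txnrd1, the cytosolic thioredoxin reductase, and Gpx2 was detected on 2. Gsr, Prdx5, Prdx6, Prdx6b and Gstm7 have no named probe and were not analysed here. Of the 48 members 42 were detected on all 24 arrays.

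Each array held choroid plexus RNA of 1 mouse. The J20 mice, which the genotype label calls AD, bear a transgene for mutant human APP, the amyloid precursor protein, and the other mice were wild type (WT). The groups were J20 at 3 months (n = 4, animals 2, 9, 16 and 23) and WT at 3 months (n = 3, animals 1, 15 and 22), J20 at 5-6 months (n = 4, animals 4, 11, 18 and 25) and WT at 5-6 months (n = 4, animals 3, 10, 17 and 24), and J20 at 11-12 months (n = 3, animals 21, 28 and 35) and WT at 11-12 months (n = 6, animals 5, 6, 12, 13, 26 and 34). Values of a group are printed in that order of animals. For sex, strain background and the transgene's promoter, nothing is given in the sources used here. RNA came from bulk plexus tissue, so fewer cells of a type and less RNA per cell cannot be told apart.

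These enzymes remove reactive oxygen in a chain. Superoxide dismutases turn superoxide into hydrogen peroxide, and catalase, glutathione peroxidases and peroxiredoxins then reduce peroxides to water or alcohols. Glutathione and thioredoxin supply the electrons and are themselves restored by reductases that use NADPH, while glutathione transferases couple glutathione to reactive compounds. Many of the genes carry antioxidant response elements, the DNA sites of the transcription factor Nrf2. The choroid plexus epithelium makes the cerebrospinal fluid and is known as a detoxifying barrier between blood and brain fluid.

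Arrays differed in signal strength, measured as the log2 upper quartile of raw intensity, which ran from 7.44 to 8.56. The weakest was J20 11-12-month animal 35 (7.44), followed by J20 5-6-month animal 18 (7.71), WT 3-month animal 15 (7.90) and J20 11-12-month animal 21 (7.91). Animals 18, 15 and 21 lie on BeadChip 2, the physical slide that carries 8 arrays. BeadChip 1 holds no J20 animal of 11-12 months. Of 16 markers of choroid plexus epithelium 12 have a probe and 11 passed the filter, each detected on 24 arrays, while Slc4a10 was detected on none. Of the lymphocyte markers 0 of 10 passed. The neuronal list had 8 of 12 tested, with Snap25 and Nefl detected on no array, and its mean score (log2, centred over arrays) ranged from -0.88 to 2.46. That maximum stood in a WT animal of 11-12 months.

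No member passed limma's Benjamini-Hochberg adjusted p of 0.05, taken over all 11464 tested probes, in any of 14 comparisons of genotype and age. None of the 48 genes was thus called different at this threshold, which does not show that they were unchanged. The number of arrays limits the precision. For J20 against WT over the 3 ages, the 95% interval of 47 of 48 members (97.9%) lay inside a 2-fold difference in either direction, beside 97.9% of all probes, and 43 of 48 (89.6%) lay inside 1.5-fold, beside 85.5%. For 11-12 against 3 months over both genotypes the counts were 46 of 48 inside 2-fold (95.8%, beside 94.9% of all probes) and 34 of 48 inside 1.5-fold (70.8%, beside 70.6%). The fit was run on simulated data of the same size, with 100 changed probes and normal noise drawn independently for each probe. Probes of real arrays vary together, so shares recovered in the simulation may differ from those in these data. There the fit recovered 88% of log2 changes of 1 and 45% of changes of 0.5 for J20 against WT over the ages. For 11-12 against 3 months over both genotypes it recovered 78% and 17%. Between single groups it recovered less. For J20 against WT at 3, 5-6 and 11-12 months it found 49%, 48% and 61% of log2 changes of 1. Of changes of 0.5 it found 0%, 5% and 2%. For 11-12 against 3 months within WT it found 55% and 7% of these 2 sizes, and within J20 54% and 1%. At 11-12 months the J20 minus WT interval of 22 of 48 members (45.8%) lay inside 1.5-fold, beside 39.7% of all probes. The members varied among animals about as much as other probes: their median SD within groups was 0.292 on the log2 scale, beside 0.315 over all tested probes. Sod1 varied least (SD 0.093) and Gpx1 most (SD 0.93).

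**Figure D1:**
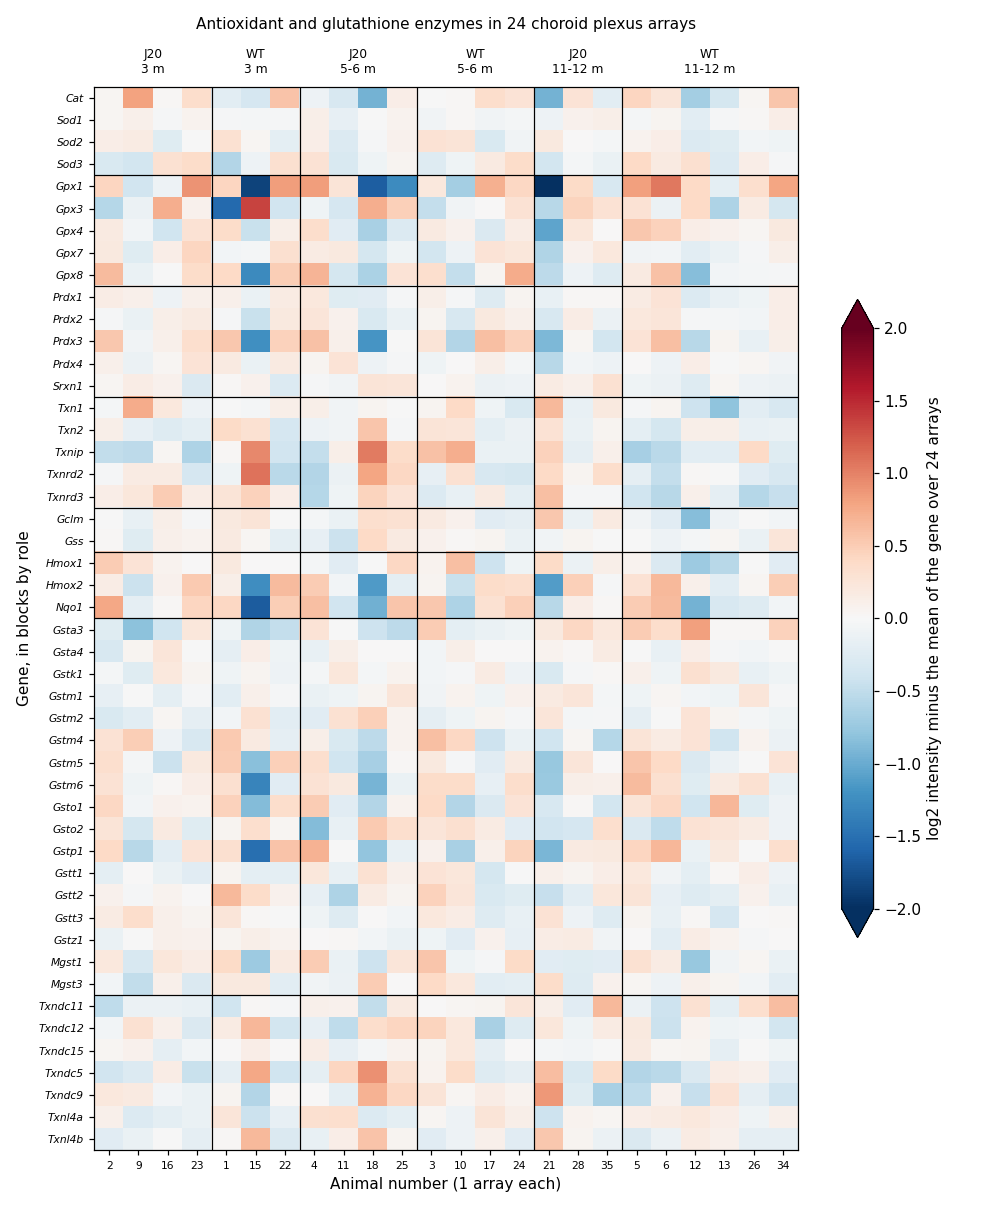
Log2 intensity of the 48 members (rows, in blocks by role) on the 24 arrays (columns, J20 left of WT at each age), each minus the mean of the gene over arrays, in colour from -2 to 2. Single columns, such as WT 3-month animal 15 and J20 11-12-month animal 21, are low together in Gpx1, Prdx3, Hmox2 and Gstp1, and no block separates J20 from WT at all ages.

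At 11-12 months Txnrd3, Txn1, Srxn1 and Gclm stood higher in J20 than in WT choroid plexus and Gpx1 stood lower, all at an unadjusted p under 0.05 and none after adjustment. These were 5 of 48 members (10.4%), beside 5.85% of all tested probes, and 0 members and 0% of probes passed the adjusted threshold in limma. Txnrd3, a thioredoxin reductase that also reduces glutathione disulfide, stood 1.44-fold higher in J20 (0.53 on the log2 scale, standard error 0.202, adjusted p = 0.70 in limma). Txn1, the cytosolic thioredoxin, had 0.51 (standard error 0.204, adjusted p = 0.70 in limma), or 1.43-fold. Srxn1, sulfiredoxin, which restores overoxidised peroxiredoxins, had 0.30 (standard error 0.122 and adjusted p = 0.70 in limma). Its 3 J20 arrays all lay above its 6 WT arrays, and the share of all probes that separate these groups was not counted. The direction of Srxn1 depends on the probe and the scaling: its other tested probe stood at -0.46, the mean over both probes at -0.08, and median scaling put the brighter probe at -0.01. Gclm, the modifier subunit of glutamate-cysteine ligase, had 0.41 (standard error 0.178, adjusted p = 0.70 in limma). Gpx1, the cytosolic glutathione peroxidase, had -1.30 (standard error 0.609, adjusted p = 0.70 in limma).

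A single J20 animal carried much of these differences. Without J20 11-12-month animal 21 the log2 difference was 0.32 for Txnrd3, 0.305 for Txn1, 0.242 for Gclm and -0.51 for Gpx1. That of the brighter Srxn1 probe ran from 0.24 to 0.34 with each array left out in turn. Within BeadChip 2, where animal 21 is the 1 J20 animal, Txn1 differed by 1.25, Gclm by 1.01 and Gpx1 by -2.46. Within BeadChip 3, with 2 J20 and 2 WT animals, these values were 0.28, 0.06 and -0.53, while Txnrd3 differed by 0.64 and 0.49 and Srxn1 by 0.27 and 0.32 within BeadChips 2 and 3. With the signal strength of the array as a covariate Gpx1 stood at -0.65, Txnrd3 at 0.31, Srxn1 at 0.22, Gclm at 0.37 and Txn1 at 0.54. Median scaling gave 0.21 for Txnrd3, 0.20 for Txn1, 0.12 for Gclm and -1.58 for Gpx1, with the median of all probes at -0.23, against 0.02 under quantile normalization. The authors' deposited log2 values gave 0.26 for Txnrd3 and 0.18 for Txn1, and array weights gave 0.25 for Gclm. In this comparison signal strength was 7.91, 8.34 and 7.44 in the 3 J20 arrays and had a lowest value of 8.03 and a highest of 8.56 in WT. Of the astrocyte markers 6 of 6 tested stood below 0 (median -0.60), with list scores from -0.45 to -0.07 in J20 and from -0.24 to 1.65 in WT. Neuronal markers stood below 0 in 8 of 8 (median -0.35) and macrophage markers in 9 of 10 (-0.22), while endothelial markers stood above 0 in 8 of 8 (0.34) and pericyte markers in 5 of 7 (0.45). The part of these cell types in the enzyme differences was not tested.

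At the younger ages no member reached an unadjusted p of 0.05 between the genotypes. At 3 months 0 of 48 members stood there in limma, beside 0.898% of all probes, with 0% past adjustment. The 2 smallest p values belonged to Txnip, which binds and inhibits thioredoxin (-0.60 with a standard error of 0.337, adjusted p = 0.999 in limma), and to Gstt2, a theta-class glutathione transferase (-0.34, adjusted p = 0.999 in limma). At 5-6 months 0 of 48 stood there, beside 1.26% of probes, again with 0% past adjustment, and the smallest p values were those of Cat (-0.47, adjusted p = 1.0 in limma) and Gstm2 (0.21, adjusted p = 1.0 in limma). Over the 3 ages, weighted equally, 1 of 48 members, Srxn1, had an unadjusted p under 0.05 (0.16, standard error 0.072, adjusted p = 1.0 in limma), beside 1.98% of probes and 0% past adjustment. The other Srxn1 probe stood at -0.16 over the ages and the mean over both at -0.002, so the direction is not settled. Txn1 came next at 0.23 (standard error 0.121, adjusted p = 1.0 in limma). Of the 48 members 20 stood above 0 and 28 below, with a median log2 difference of -0.02, beside 0.009 over all probes. The interaction of genotype and age, tested as a moderated F test, gave 0 members at an unadjusted p under 0.05, beside 1.47% of probes and 0% past adjustment. Gstm6 and Gclm had its smallest p values (0.109 and 0.112, adjusted p = 0.986 for each in limma).

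**Figure D2:**
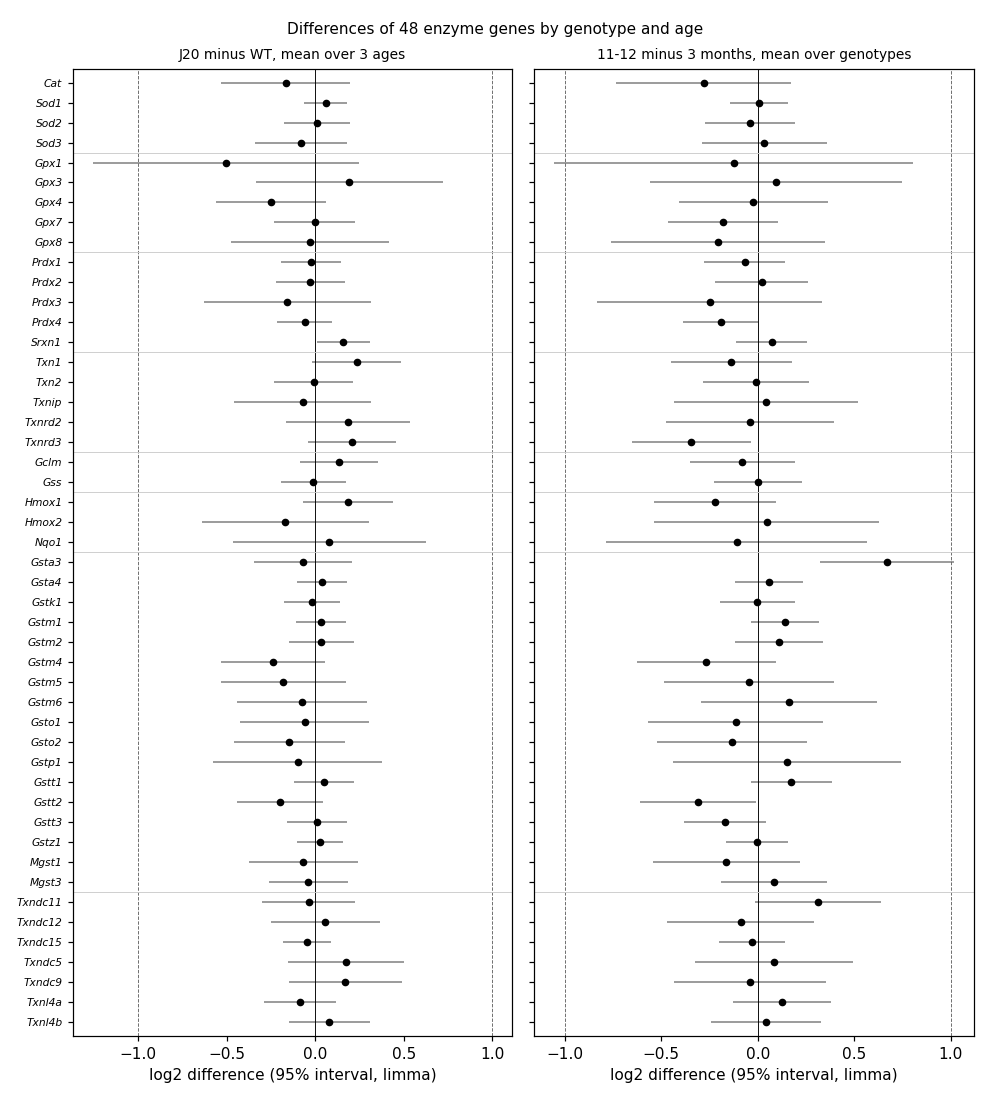
Log2 difference of each member with its 95% interval from limma, J20 minus WT averaged over the 3 ages (left) and 11-12 minus 3 months averaged over genotypes (right), with dashed lines at a 2-fold change. Intervals are centred near 0 for most members, and the interval of Gsta3 on the right runs from 0.32 to 1.01.

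Gsta3 stood higher with age in both genotypes, and had the smallest p value of all members in any comparison. Gsta3 is an alpha-class glutathione transferase, known in mice for conjugating activated aflatoxin. Over both genotypes its log2 intensity averaged 0.67 more at 11-12 than at 3 months (standard error 0.166, adjusted p = 0.112 in limma), or 1.59-fold. It differed by 0.75 in WT (adjusted p = 0.507 in limma) and by 0.58 in J20 (adjusted p = 0.81 in limma), and its age difference did not differ between the genotypes at an unadjusted p of 0.05 (interaction -0.17, 95% interval -0.86 to 0.52). Txnrd3 stood lower at 11-12 than at 3 months, by -0.35 over both genotypes (adjusted p = 0.698 in limma) by -0.63 in WT (adjusted p = 0.619 in limma) and by -0.07 in J20 (adjusted p = 0.941 in limma). The J20 minus WT difference of these age differences was 0.56 (95% interval -0.06 to 1.18, adjusted p = 0.789 in limma). Gstt2 stood at -0.31 over both genotypes (adjusted p = 0.80 in limma) and at -0.44 in WT (adjusted p = 0.993 in limma).

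Gsta3 stayed short of the threshold in 33 of 35 alternatives, and the others placed it past. Its log2 difference was lowest at 0.38 over these settings. Its adjusted p in limma ranged from 0.0447 to 0.988. It was 0.0447 with array weights (log2 difference 0.51), 0.0465 without J20 3-month animal 23 (0.76) and 0.0867 with the BeadChip as a block (0.70). Within BeadChips 2 and 3 the difference over both genotypes was 0.81 and 0.40, and in WT it was 0.53, 1.02 and 0.72 within BeadChips 1, 2 and 3. In J20 it was 0.59 and 0.09 within BeadChips 2 and 3, with 1 animal of 3 months on each. The correlation of Gsta3 with signal strength was r = 0.03 over 24 arrays. Erythroid marker scores ran from -0.60 to -0.11 in J20 and from -0.83 to 0.21 in WT at 11-12 months, against -0.43 to 1.24 in J20 and -0.09 to 0.98 in WT at 3 months. Over both genotypes endothelial markers stood below 0 in 8 of 8 (median -0.18) and pericyte markers in 6 of 7 (-0.17), while astrocyte markers stood above 0 in 6 of 6 (0.20) and neuronal markers in 7 of 8 (0.41). Their part in the result was not tested. The score of the epithelial markers ran from -0.21 to 0.02 in J20 and from -0.22 to 0.26 in WT at 11-12 months, against -0.16 to 0.19 in J20 and -0.27 to 0.21 in WT at 3 months.

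Counts of members by age comparison were read against those of all probes. For 11-12 against 3 months over both genotypes 3 of 48 members (6.2%) had an unadjusted p under 0.05, beside 5.97% of probes, and 0 members passed adjustment in limma, beside 0.358% of probes. With array weights 3 members passed, beside 4.78% of probes: Gsta3, Txnrd3 (-0.44, adjusted p = 0.0199 in limma) and Txndc11, a thioredoxin-domain protein of the endoplasmic reticulum (0.60, adjusted p = 0.031 in limma). Txndc11 stood at 0.31 without weights (adjusted p = 0.887 in limma), and its other tested probe stood at -0.02 there and had r = 0.04 with the probe used. Without J20 3-month animal 23 Gsta3 alone of the members passed, beside 0.331% of probes. For J20 against WT at 11-12 months array weights passed 1 member, Srxn1 (0.36, adjusted p = 0.038 in limma, with an adjusted p of 0.038 to 1.0 over its alternatives), beside 2.33% of probes. That call is of the brighter probe alone, and the other probe ran the opposite way in the unweighted fit (-0.46). For 5-6 against 3 months over both genotypes 1 of 48 members had an unadjusted p under 0.05, Txnrd3 (-0.31, adjusted p = 1.0 in limma), beside 4.14% of probes, and 0 passed adjustment, beside 0.0698%. Gstt1, the best known theta-class transferase, came next at 0.20 (adjusted p = 1.0 in limma). For 11-12 against 5-6 months over both genotypes the count was again 1, Gsta3 (0.39, adjusted p = 1.0 in limma), beside 1.33% of probes, with 0 past adjustment in limma, beside 0.0523%. Mgst1, the microsomal transferase, had the next smallest p there (-0.28, adjusted p = 1.0 in limma).

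Within WT mice 3 of 48 members had an unadjusted p under 0.05 between 11-12 and 3 months (Gsta3, Txnrd3 and Gstt2), beside 4.41% of probes, and 0 passed adjustment in limma, beside 0.105%. Between 5-6 and 3 months in WT 0 members had an unadjusted p under 0.05 in limma, beside 2.57% of probes and 0% past adjustment. The smallest p values there were those of Gstm6, a mu-class transferase (0.65, adjusted p = 1.0 in limma), and Txnrd3 (-0.39, adjusted p = 1.0 in limma). Between 11-12 and 5-6 months in WT 0 members had an unadjusted p under 0.05, beside 1.65% of probes, and 0 passed adjustment in limma, beside 0.0436%. Txnip (-0.51, adjusted p = 1.0 in limma) and Hmox1 (-0.33, adjusted p = 1.0 in limma) had the smallest p values.

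Within J20 mice Txndc5, Gstm2 and Txnip stood higher at 5-6 than at 3 months. Txndc5, a disulfide isomerase of the endoplasmic reticulum, had a log2 difference of 0.60 (standard error 0.267, adjusted p = 0.961 in limma), Gstm2, a mu-class transferase, 0.32 (standard error 0.148, adjusted p = 0.961 in limma), and Txnip 0.66 (standard error 0.312, adjusted p = 0.961 in limma). These were 3 of 48 members at an unadjusted p under 0.05, beside 3.18% of probes, and 0 passed adjustment, with 0% of probes. All of these stood lower on arrays of higher signal strength (r = -0.72, -0.65 and -0.59 over 24 arrays). The 4 J20 arrays of 5-6 months include animal 18, with the second lowest signal. Over other processing settings the lowest differences were 0.40 for Txndc5, 0.23 for Gstm2 and 0.46 for Txnip. With each array left out in turn they were 0.42, 0.21 and 0.40. The part of signal strength in these differences was not tested. Within BeadChips 1, 2 and 3 the differences were 0.14, 0.52 and 0.75 for Txndc5, 0.03, 0.36 and 0.25 for Gstm2 and 0.03, 0.54 and 0.98 for Txnip. In the same comparison neuronal markers stood above 0 in 8 of 8 (median 0.49), astrocyte markers in 6 of 6 (0.42) and oligodendrocyte markers in 6 of 6 (0.37), and their part in the result was not tested. Between 11-12 and 3 months in J20 2 of 48 members had an unadjusted p under 0.05, Gsta3 and Prdx4, a peroxiredoxin of the endoplasmic reticulum (-0.30, adjusted p = 0.81 in limma), beside 5.31% of probes, and 0 passed adjustment in limma, beside 0.0611%. Between 11-12 and 5-6 months in J20 the count was 0, beside 1.34% of probes, and 0 passed adjustment in limma, beside 0.0349%. Prdx4 (-0.28) and Gsta3 (0.43) had the smallest p values there (adjusted p = 1.0 for each in limma).

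**Figure D3:**
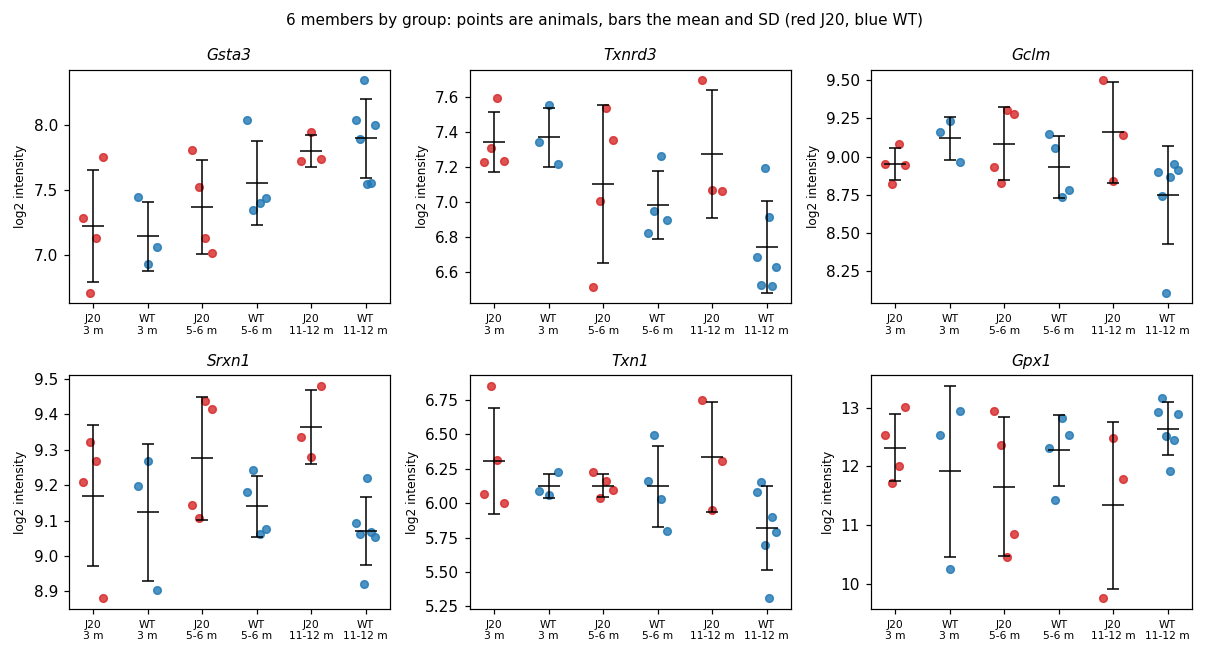
Log2 intensity of Gsta3, Txnrd3, Gclm, Srxn1, Txn1 and Gpx1 by group, 1 point per animal, with the group mean and SD as bars (J20 red, WT blue, J20 left of WT at each age). Gsta3 is highest at 11-12 months in both genotypes, Srxn1 in J20 lies above WT at 11-12 months, and Gpx1 has single low animals in several groups.

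Promoters of 3 of these genes are shown to print the antioxidant response element core TGACNNNGC in its setting. Gsta3, Gclm and Srxn1 were chosen, after their values were seen, from the 4 genes that had an unadjusted p under 0.05 in a genotype or age comparison above and hold this core in a window. The other, Txndc5, has 3 windows and the core in 1 of them, and is not printed. Txnrd3, Txn1 and Gpx1, named beside them, hold none in theirs. Windows are RefSeq's on GRCm38.p6, 250 bases before to 50 bases after a start site, and all 3 genes lie on the plus strand. For Gsta3 and Gclm that site lies downstream of the first base of the gene (21240565 and 122245487). Capitals mark matches to the looser form TGANNNNGC, on either strand, which includes the core. Counted from the start site of the window, the core stands at base -121 on the same strand in Gsta3 (chr1:21240335-21240634). It stands at -134 on the opposite strand in Gclm (chr3:122245307-122245606) and at 29 on the opposite strand in Srxn1 (chr2:152105274-152105573).
Gsta3: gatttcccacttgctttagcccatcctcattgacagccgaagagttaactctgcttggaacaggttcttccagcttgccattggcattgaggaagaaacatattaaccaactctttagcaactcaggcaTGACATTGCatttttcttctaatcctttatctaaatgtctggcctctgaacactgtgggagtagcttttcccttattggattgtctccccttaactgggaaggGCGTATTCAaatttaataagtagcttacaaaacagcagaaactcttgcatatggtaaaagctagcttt
Gclm: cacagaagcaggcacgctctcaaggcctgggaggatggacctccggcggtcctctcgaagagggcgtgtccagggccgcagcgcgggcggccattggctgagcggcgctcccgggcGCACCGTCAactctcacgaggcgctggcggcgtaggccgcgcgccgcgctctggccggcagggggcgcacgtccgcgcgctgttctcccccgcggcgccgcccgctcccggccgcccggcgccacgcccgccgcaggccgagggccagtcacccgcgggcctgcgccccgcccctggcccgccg
Srxn1: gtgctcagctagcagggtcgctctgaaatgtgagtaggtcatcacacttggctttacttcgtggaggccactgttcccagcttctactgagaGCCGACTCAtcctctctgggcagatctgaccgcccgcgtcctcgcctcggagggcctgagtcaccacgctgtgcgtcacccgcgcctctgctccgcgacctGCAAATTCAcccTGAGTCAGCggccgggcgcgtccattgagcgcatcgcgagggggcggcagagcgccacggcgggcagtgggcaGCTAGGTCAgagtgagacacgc
Of the 48 members 43 had a promoter window, and 9 of these 43 genes (20.9%) held the core, beside 13.99% of all 27025 genes with a window. The other 6 were Gstm5, Prdx1, Mgst1, Txndc5, Txndc11 and Sod1. The looser form stood in 18 of 43 member genes (41.9%), beside 45.0% of all genes. A gene counts when any of its windows holds a match. Counted by window, the core stood in 15.25% of 59 member windows, beside 12.39% of all 32851 windows. The looser form stood in 38.98% and 41.34%. A match is a string of letters and was not tested as a binding site.

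Superoxide dismutases and catalase act first in the chain, and 0 of their 4 members passed. Over the 3 ages their J20 minus WT differences had intervals of -0.06 to 0.18 for Sod1, -0.18 to 0.20 for Sod2, -0.34 to 0.18 for Sod3 and -0.53 to 0.20 for Cat. At 3 months Sod1 had log2 intensities of 13.82, 13.89, 13.75 and 13.85 in J20 and 13.75, 13.74 and 13.75 in WT. At 5-6 months Sod1 had 13.90, 13.62, 13.78 and 13.85 in J20 and 13.71, 13.80, 13.70 and 13.74 in WT. At 11-12 months Sod1 had 13.68, 13.86 and 13.90 in J20, against a lowest of 13.57, a median of 13.78 and a highest of 13.92 in WT. Sod1, the cytosolic copper-zinc enzyme, overlapped between the genotypes at each age, and at 3 months the lowest J20 value equalled the highest WT value. At 3 months Sod2 had log2 intensities of 12.94, 12.97, 12.56 and 12.79 in J20 and 13.11, 12.84 and 12.61 in WT. At 5-6 months Sod2 had 12.94, 12.53, 12.79 and 12.89 in J20 and 13.09, 13.06, 12.51 and 12.74 in WT. At 11-12 months Sod2 had 12.99, 12.82 and 12.76 in J20, against a lowest of 12.54, a median of 12.73 and a highest of 12.94 in WT. Sod2, the mitochondrial manganese enzyme, overlapped between J20 and WT at each age, and its lowest value was that of WT 5-6-month animal 17. At 3 months Sod3 had log2 intensities of 8.69, 8.62, 9.30 and 9.35 in J20 and 8.39, 8.89 and 9.30 in WT. At 5-6 months Sod3 had 9.28, 8.68, 8.91 and 9.04 in J20 and 8.73, 8.90, 9.17 and 9.36 in WT. At 11-12 months Sod3 had 8.62, 8.95 and 8.85 in J20, against a lowest of 8.71, a median of 9.14 and a highest of 9.39 in WT. Sod3, the extracellular enzyme, overlapped between J20 and WT at each age, and its lowest value was that of WT 3-month animal 1. At 3 months Cat had log2 intensities of 8.11, 8.86, 8.08 and 8.42 in J20 and 7.85, 7.73 and 8.63 in WT. At 5-6 months Cat had 7.97, 7.75, 7.12 and 8.20 in J20 and 8.05, 8.09, 8.42 and 8.34 in WT. At 11-12 months Cat had 7.13, 8.34 and 7.85 in J20, against a lowest of 7.39, a median of 8.21 and a highest of 8.62 in WT. Catalase was highest in J20 3-month animal 9 and lowest in animals 18 (J20, 5-6 months) and 21 (J20, 11-12 months). All groups of the 2 genotypes overlapped at each age.

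Glutathione is made in 2 steps, and 0 of the 2 members of that pathway passed. At 3 months Gclm had log2 intensities of 8.95, 8.82, 9.08 and 8.94 in J20 and 9.16, 9.23 and 8.96 in WT. At 5-6 months Gclm had 8.93, 8.83, 9.30 and 9.28 in J20 and 9.15, 9.06, 8.74 and 8.78 in WT. At 11-12 months Gclm had 9.50, 8.84 and 9.14 in J20, against a lowest of 8.11, a median of 8.89 and a highest of 8.95 in WT. At 11-12 months J20 animal 21 was highest and WT animal 12 lowest, and the groups overlapped through J20 animal 28. All 6 WT animals of 11-12 months lay below the 3 WT animals of 3 months, and the share of all probes that do so was not counted. At 3 months Gss had log2 intensities of 7.45, 7.19, 7.53 and 7.51 in J20 and 7.62, 7.48 and 7.23 in WT. At 5-6 months Gss had 7.27, 7.002, 7.83 and 7.61 in J20 and 7.52, 7.45, 7.48 and 7.29 in WT. At 11-12 months Gss had 7.37, 7.49 and 7.43 in J20, against a lowest of 7.30, a median of 7.41 and a highest of 7.67 in WT. Gss, glutathione synthetase, overlapped between the genotypes at each age, and its other 2 tested probes had r = 0.00 and -0.18 with it over 24 arrays, so the probes of this gene did not move together.

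Glutathione peroxidases included the member with the widest spread. Of 5 members 0 passed, and over the 3 ages 4 stood below 0 and 1 above 0 in J20 against WT. At 3 months Gpx1 had log2 intensities of 12.54, 11.72, 12.004 and 13.003 in J20 and 12.54, 10.25 and 12.95 in WT. At 5-6 months Gpx1 had 12.94, 12.36, 10.46 and 10.85 in J20 and 12.31, 11.42, 12.82 and 12.53 in WT. At 11-12 months Gpx1 had 9.75, 12.49 and 11.78 in J20, against a lowest of 11.91, a median of 12.70 and a highest of 13.16 in WT. Single animals set these values: J20 11-12-month animal 21, WT 3-month animal 15 and J20 5-6-month animals 18 and 25 were far below the rest of their groups. The genotypes overlapped at every age. At 3 months Gpx4 had log2 intensities of 12.57, 12.33, 11.99 and 12.67 in J20 and 12.76, 11.93 and 12.51 in WT. At 5-6 months Gpx4 had 12.74, 12.15, 11.74 and 12.11 in J20 and 12.56, 12.47, 12.09 and 12.53 in WT. At 11-12 months Gpx4 had 11.32, 12.61 and 12.40 in J20, against a lowest of 12.42, a median of 12.55 and a highest of 12.93 in WT. Gpx4, which reduces lipid hydroperoxides in membranes, was lowest in J20 11-12-month animal 21 as well, and its J20 minus WT interval over the ages ran from -0.56 to 0.06. At 3 months Gpx3 had log2 intensities of 8.96, 9.42, 10.25 and 9.61 in J20 and 7.98, 10.89 and 9.15 in WT. At 5-6 months Gpx3 had 9.44, 9.20, 10.27 and 10.02 in J20 and 9.06, 9.47, 9.54 and 9.82 in WT. At 11-12 months Gpx3 had 8.98, 9.97 and 9.83 in J20, against a lowest of 8.92, a median of 9.55 and a highest of 9.93 in WT. Gpx3, the secreted plasma enzyme, had its lowest and its highest value among the 3 WT animals of 3 months, so that group alone spanned all other animals. At 3 months Gpx8 had log2 intensities of 13.17, 12.39, 12.51 and 12.89 in J20 and 12.92, 11.25 and 13.02 in WT. At 5-6 months Gpx8 had 13.20, 12.18, 11.89 and 12.80 in J20 and 12.86, 12.06, 12.58 and 13.26 in WT. At 11-12 months Gpx8 had 11.999, 12.42 and 12.27 in J20, against a lowest of 11.67, a median of 12.50 and a highest of 13.11 in WT. Gpx8, a peroxidase of the endoplasmic reticulum membrane, was lowest in WT 3-month animal 15, and its 2 other probes followed the same arrays (r = 0.98 and 0.89 over 24 arrays). Gpx7, its relative of the endoplasmic reticulum, ranged from 7.55 to 8.58 over the 24 arrays.

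Peroxiredoxins and sulfiredoxin had 5 members, of which 0 passed. At 3 months Srxn1 had log2 intensities of 9.21, 9.32, 9.27 and 8.88 in J20 and 9.20, 9.27 and 8.90 in WT. At 5-6 months Srxn1 had 9.14, 9.11, 9.44 and 9.42 in J20 and 9.18, 9.24, 9.06 and 9.08 in WT. At 11-12 months Srxn1 had 9.34, 9.28 and 9.48 in J20, against a lowest of 8.92, a median of 9.06 and a highest of 9.22 in WT. The 3 J20 animals of 11-12 months lay above all 6 WT animals, and at 3 and 5-6 months the genotypes overlapped. How many of all probes separate the genotypes at 11-12 months was not counted. The direction depends on the probe: the other tested probe of Srxn1, detected on 23 arrays, stood at -0.46 in J20 against WT at 11-12 months (standard error 0.186, adjusted p = 0.70 in limma), and the 2 probes had r = -0.60 over 24 arrays. The mean over both probes was -0.08, and with arrays scaled to their median in place of quantile normalization the brighter probe stood at -0.01. At 3 months Prdx4 had log2 intensities of 12.87, 12.65, 12.81 and 13.05 in J20 and 12.96, 12.64 and 12.95 in WT. At 5-6 months Prdx4 had 12.82, 13.04, 12.67 and 12.75 in J20 and 12.68, 12.77, 12.88 and 12.73 in WT. At 11-12 months Prdx4 had 12.22, 12.72 and 12.68 in J20, against a lowest of 12.66, a median of 12.77 and a highest of 12.90 in WT. Prdx4 was lowest in J20 11-12-month animal 21, and all other animals lay within 12.64 to 13.05. Over the 24 arrays Prdx1 ranged from 13.02 to 13.58, Prdx2 from 13.24 to 13.93 and Prdx3, the mitochondrial peroxiredoxin, from 8.16 to 10.004. The lowest value of Prdx3 was that of WT 3-month animal 15.

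Thioredoxins and their partners had 5 members, and 0 passed. In J20 against WT 5 of 5 stood above 0 at 11-12 months (0.17 to 0.53), beside 6097 of 11464 probes. The counts were 5 of 5 at 5-6 months (0.00 to 0.26), beside 5629 probes, and 1 of 5 at 3 months, beside 5848. Txnrd2, Txnip, Txn2 and Txnrd3 stood lower on arrays of higher signal strength (r = -0.64, -0.59, -0.55 and -0.42), and Txn1 had r = -0.07. At 3 months Txn1 had log2 intensities of 6.06, 6.85, 6.32 and 6 in J20 and 6.09, 6.06 and 6.22 in WT. At 5-6 months Txn1 had 6.23, 6.04, 6.16 and 6.09 in J20 and 6.16, 6.50, 6.03 and 5.80 in WT. At 11-12 months Txn1 had 6.75, 5.95 and 6.30 in J20, against a lowest of 5.31, a median of 5.85 and a highest of 6.16 in WT. J20 animals 21 and 35 lay above all WT animals at 11-12 months, J20 animal 28 lay among them, and the probe was not detected on 2 of those 6 WT arrays. At 3 months Txnrd3 had log2 intensities of 7.22, 7.31, 7.59 and 7.23 in J20 and 7.34, 7.55 and 7.22 in WT. At 5-6 months Txnrd3 had 6.51, 7.001, 7.54 and 7.35 in J20 and 6.82, 6.94, 7.26 and 6.90 in WT. At 11-12 months Txnrd3 had 7.69, 7.07 and 7.06 in J20, against a lowest of 6.52, a median of 6.66 and a highest of 7.19 in WT. In WT all 6 Txnrd3 values of 11-12 months lay below the 3 of 3 months, and J20 11-12-month animal 21 had the highest value of all. The share of all probes that separate these WT ages was not counted. At 3 months Txnip had log2 intensities of 9.46, 9.44, 9.99 and 9.34 in J20 and 9.98, 10.92 and 9.56 in WT. At 5-6 months Txnip had 9.48, 10.07, 10.99 and 10.32 in J20 and 10.53, 10.68, 9.82 and 9.82 in WT. At 11-12 months Txnip had 10.41, 9.78 and 10.06 in J20, against a lowest of 9.28, a median of 9.72 and a highest of 10.35 in WT. Txnip was highest in J20 5-6-month animal 18 and WT 3-month animal 15, and its groups overlapped. Over the 24 arrays Txn2, the mitochondrial thioredoxin, ranged from 8.84 to 9.76 and Txnrd2, the mitochondrial reductase, from 8.37 to 10.04. For Txnrd2 the 3 J20 animals of 11-12 months lay above all WT animals of that age (mean 9.22 ± 0.18 in J20 and 8.76 ± 0.19 in WT, SD, n = 3 and 6). How many of all probes separate these groups was not counted.

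Glutathione transferases were the largest block, with 17 members, and 0 passed. Over the 3 ages 6 stood above 0 and 11 below in J20 against WT (-0.24 to 0.05), and for 11-12 against 3 months 8 stood above and 9 below (-0.31 for Gstt2 to 0.67 for Gsta3). Genes of 1 class are alike in sequence, and 5 mu-class genes (Gstm1, Gstm2, Gstm4, Gstm5 and Gstm6) are neighbours on chromosome 3 in GRCm38.p6, so probes may not tell close relatives apart. At 3 months Gsta3 had log2 intensities of 7.28, 6.71, 7.13 and 7.76 in J20 and 7.44, 6.93 and 7.06 in WT. At 5-6 months Gsta3 had 7.81, 7.52, 7.13 and 7.02 in J20 and 8.04, 7.34, 7.40 and 7.44 in WT. At 11-12 months Gsta3 had 7.72, 7.94 and 7.74 in J20, against a lowest of 7.55, a median of 7.95 and a highest of 8.35 in WT. In WT all 6 animals of 11-12 months lay above the 3 animals of 3 months, and the share of all probes that do so was not counted. In J20 the 3 animals of 11-12 months lay above 3 of the 4 animals of 3 months, and J20 3-month animal 23 reached into them. At 3 months Gsta4 had log2 intensities of 12.09, 12.46, 12.64 and 12.40 in J20 and 12.22, 12.54 and 12.33 in WT. At 5-6 months Gsta4 had 12.26, 12.52, 12.41 and 12.42 in J20 and 12.36, 12.52, 12.42 and 12.41 in WT. At 11-12 months Gsta4 had 12.48, 12.43 and 12.56 in J20, against a lowest of 12.25, a median of 12.39 and a highest of 12.54 in WT. Gsta4, which conjugates the lipid aldehyde 4-hydroxynonenal, was among the steadiest members (SD within groups 0.131), and its J20 minus WT interval over the ages ran from -0.10 to 0.18.

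Among the mu-class and pi-class transferases no group stood apart. At 3 months Gstm1 had log2 intensities of 9.04, 9.19, 9.01 and 9.18 in J20 and 8.99, 9.30 and 9.17 in WT. At 5-6 months Gstm1 had 9.07, 9.12, 9.26 and 9.44 in J20 and 9.13, 9.27, 9.11 and 9.29 in WT. At 11-12 months Gstm1 had 9.38, 9.45 and 9.16 in J20, against a lowest of 9.11, a median of 9.16 and a highest of 9.44 in WT. Gstm1, a main liver enzyme of its class, overlapped between the genotypes at each age, and its other tested probe, detected on 3 arrays, had r = -0.54 with it. At 3 months Gstm2 had log2 intensities of 12.35, 12.46, 12.70 and 12.49 in J20 and 12.60, 12.97 and 12.45 in WT. At 5-6 months Gstm2 had 12.44, 12.97, 13.15 and 12.74 in J20 and 12.49, 12.58, 12.72 and 12.64 in WT. At 11-12 months Gstm2 had 12.91, 12.63 and 12.65 in J20, against a lowest of 12.49, a median of 12.64 and a highest of 12.93 in WT. Gstm2 was highest in J20 5-6-month animal 18, and a second probe had r = 0.92 with it and another r = 0.06. At 3 months Gstm6 had log2 intensities of 6.53, 6.16, 6.26 and 6.37 in J20 and 6.56, 4.92 and 6.01 in WT. At 5-6 months Gstm6 had 6.54, 6.44, 5.32 and 6.11 in J20 and 6.61, 6.61, 6.09 and 6.60 in WT. At 11-12 months Gstm6 had 5.51, 6.35 and 6.34 in J20, against a lowest of 6.01, a median of 6.48 and a highest of 6.87 in WT. Gstm6 was detected on 21 arrays and was lowest in WT 3-month animal 15, which set the level of that group. At 3 months Gstp1 had log2 intensities of 11.54, 10.59, 10.94 and 11.42 in J20 and 11.46, 9.64 and 11.72 in WT. At 5-6 months Gstp1 had 11.84, 11.14, 10.36 and 10.998 in J20 and 11.24, 10.50, 11.24 and 11.59 in WT. At 11-12 months Gstp1 had 10.23, 11.32 and 11.35 in J20, against a lowest of 11.01, a median of 11.41 and a highest of 11.81 in WT. Gstp1, the pi-class enzyme, was lowest in that same animal, and its second probe moved with it (r = 0.89). Over the 24 arrays Gstm4 ranged from 5.84 to 7.01 and Gstm5 from 10.50 to 11.89.

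Theta-class and microsomal transferases also had no member past the threshold. At 3 months Gstt1 had log2 intensities of 9.94, 10.14, 10 and 9.91 in J20 and 10.19, 9.94 and 9.95 in WT. At 5-6 months Gstt1 had 10.36, 9.98, 10.44 and 10.23 in J20 and 10.41, 10.36, 9.78 and 10.12 in WT. At 11-12 months Gstt1 had 10.23, 10.19 and 10.27 in J20, against a lowest of 9.94, a median of 10.12 and a highest of 10.34 in WT. In J20 the 3 animals of 11-12 months lay above the 4 of 3 months. At 3 months Gstt2 had log2 intensities of 8.41, 8.30, 8.40 and 8.34 in J20 and 8.98, 8.70 and 8.42 in WT. At 5-6 months Gstt2 had 8.17, 7.70, 8.49 and 8.39 in J20 and 8.79, 8.57, 8.02 and 8.09 in WT. At 11-12 months Gstt2 had 7.86, 8.12 and 8.56 in J20, against a lowest of 8.08, a median of 8.17 and a highest of 8.58 in WT. At 3 months the 4 J20 animals lay below the 3 WT animals, by 0.01 at the closest, and at later ages the genotypes overlapped. For Gstt1 and Gstt2 alike, the share of all probes that separate these groups was not counted. At 3 months Mgst1 had log2 intensities of 11.31, 10.79, 11.33 and 11.25 in J20 and 11.48, 10.38 and 11.29 in WT. At 5-6 months Mgst1 had 11.61, 10.97, 10.68 and 11.35 in J20 and 11.66, 11.01, 11.08 and 11.49 in WT. At 11-12 months Mgst1 had 10.87, 10.86 and 10.87 in J20, against a lowest of 10.34, a median of 11.09 and a highest of 11.41 in WT. The 3 J20 animals of 11-12 months had nearly the same value, and the second probe moved with the first (r = 0.89). Over the 24 arrays Gstt3 ranged from 9.23 to 9.91, Gstk1 from 12.12 to 12.75, Gstz1 from 10.07 to 10.47, Gsto1 from 6.96 to 8.50, Gsto2 from 5.02 to 6.40 and Mgst3 from 10.13 to 11.13. Gsto2 was detected on 19 arrays, and on 1 of 3 in J20 at 11-12 months.

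Hmox1 and the quinone reductase Nqo1 are standard readouts of the Nrf2 response. With Hmox2 they formed a block of 3 members, of which 0 passed. At 3 months Hmox1 had log2 intensities of 7.13, 6.89, 6.69 and 6.63 in J20 and 6.82, 6.63 and 6.63 in WT. At 5-6 months Hmox1 had 6.58, 6.40, 6.62 and 7.03 in J20 and 6.70, 7.23, 6.21 and 6.53 in WT. At 11-12 months Hmox1 had 7.01, 6.50 and 6.74 in J20, against a lowest of 5.90, a median of 6.36 and a highest of 6.70 in WT. Hmox1, the inducible heme oxygenase, stood higher in J20 than in WT at 11-12 months by 0.42 (adjusted p = 0.70 in limma), and the groups overlapped through J20 animal 28. At 3 months Nqo1 had log2 intensities of 9.996, 9.04, 9.24 and 9.65 in J20 and 9.63, 7.56 and 9.71 in WT. At 5-6 months Nqo1 had 9.82, 8.83, 8.26 and 9.76 in J20 and 9.75, 8.59, 9.52 and 9.69 in WT. At 11-12 months Nqo1 had 8.66, 9.35 and 9.24 in J20, against a lowest of 8.27, a median of 9.06 and a highest of 9.85 in WT. Nqo1 was lowest in WT 3-month animal 15, and its J20 minus WT interval over the ages ran from -0.47 to 0.63. Hmox2, the constitutive heme oxygenase, ranged from 7.69 to 9.58, with the same lowest animal.

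Other genes that carry thioredoxin in their names, among them genes of protein folding or splicing, were 7 members, and 0 passed. At 3 months Txndc5 had log2 intensities of 9.99, 10.11, 10.53 and 9.94 in J20 and 10.20, 11.16 and 9.99 in WT. At 5-6 months Txndc5 had 10.19, 10.80, 11.29 and 10.68 in J20 and 10.45, 10.75, 10.11 and 10.20 in WT. At 11-12 months Txndc5 had 10.99, 10.07 and 10.76 in J20, against a lowest of 9.78, a median of 10.12 and a highest of 10.53 in WT. Txndc5 was highest in J20 5-6-month animal 18 and WT 3-month animal 15, and the genotypes overlapped at each age. Over the 24 arrays Txndc12 of the endoplasmic reticulum ranged from 6.38 to 7.70, Txndc11 from 5.73 to 6.89, and the splicing factors Txnl4a and Txnl4b from 10.01 to 10.77 and from 7.35 to 8.29. Txndc15 ranged from 13.31 to 13.71, and Txndc9, detected on 9 arrays, from 4.71 to 6.23.

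Members differed in how closely they followed the signal strength of the array. Over the 24 arrays 25 of 48 members passed an adjusted permutation p of 0.05 for Pearson's r (48 relations, 2-sided, Benjamini-Hochberg). Of these, 15 had a positive and 10 a negative r. The permutations took all arrays without regard to BeadChip, so differences between slides count toward r. Some members that passed changed sign within a slide. Gsta4 had r = -0.52 and 0.34 on BeadChip 2, and Gstm4 had r = 0.53 and -0.35 on BeadChip 1. The share of all tested probes that pass this test was not counted, so the 25 cannot be set against other genes. A size of r above 0.5 was found in 24 of 48 members, beside 37.0% of all tested probes. Gpx8 had r = 0.70 and rho = 0.74 (permutation p = 0.00019 and 9e-05, adjusted p = 0.0032 for r), with r = 0.80 without the 2 arrays farthest from the median and r = 0.50, 0.62 and 0.67 within BeadChips 1, 2 and 3. Prdx3 had r = 0.70 and rho = 0.58 (permutation p = 0.00027 and 0.0033), r = 0.70 without the 2 farthest arrays and r = 0.58, 0.84 and 0.71 within the BeadChips. Txndc5 had r = -0.72 and rho = -0.67 (permutation p = 0.00011 and 0.00065), r = -0.68 without the 2 farthest arrays and r = -0.80, -0.71 and -0.57 within the BeadChips. Srxn1 had r = -0.48 and rho = -0.36 (permutation p = 0.016 and 0.084), r = -0.17 without the 2 farthest arrays and r = -0.32, -0.56 and -0.60 within the BeadChips, so its overall value depends on those 2 arrays while the sign was negative on each BeadChip. The sources used here do not say what set the signal strength.

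WT 3-month animal 15 had the lowest of the 24 values for 10 of 48 members (20.8%), beside 14.04% of all tested probes. J20 11-12-month animal 21 was lowest for 5 members (10.4%), beside 8.7% of probes, and WT 11-12-month animal 12 for 5, beside 4.9%. J20 5-6-month animal 18 was highest for 8 members (16.7%), beside 9.7% of probes. The same arrays also stood at the edges for other probes.

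**Figure D4:**
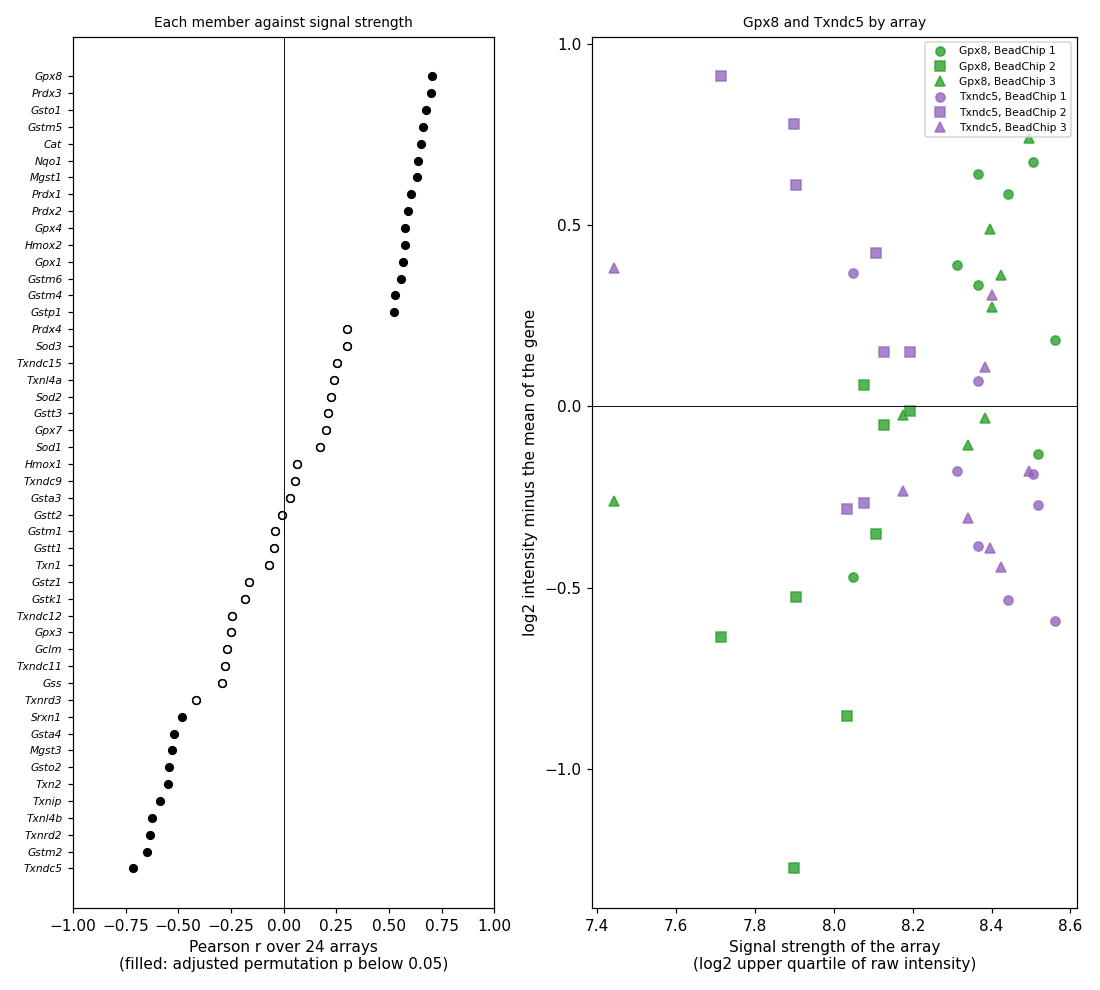
Pearson r of each member with signal strength (log2 upper quartile of raw intensity) over 24 arrays, filled where the adjusted permutation p is below 0.05 (left), and the values of Gpx8 and Txndc5 against signal strength, by BeadChip (right). Members run from 0.70 (Gpx8) to -0.72 (Txndc5), and on the right the 2 genes slope in opposite directions.

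Genes around these enzymes were counted from 8 lists, and in each list 0 genes passed limma's adjusted threshold in either direction in any comparison. The gene of smallest unadjusted p is named for each list. Of 14 tested genes of glutathione turnover and transport, Esd, which releases glutathione from its formaldehyde adduct, stood at 0.57 in J20 at 5-6 against 3 months (standard error 0.148, adjusted p = 0.928 in limma). Its 4 J20 animals ran from 7.83 to 8.14 at 5-6 months, against 7.23 to 7.77 at 3 months, with no overlap. How many of all probes separate these groups was not counted. Of 9 glutaredoxins and methionine sulfoxide reductases, Glrx, glutaredoxin, stood at -0.38 for 11-12 against 3 months over both genotypes (adjusted p = 0.197 in limma). Its level was 9.38 ± 0.21 in J20 and 9.48 ± 0.09 in WT at 11-12 months, against 9.87 ± 0.24 in J20 and 9.75 ± 0.16 in WT at 3 months (SD, n = 3, 6, 4 and 3).

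Iron, selenium and Nrf2 genes gave single values of the same kind. Of 12 genes of metal storage, Slc40a1, the iron exporter ferroportin, stood at -0.86 in WT at 11-12 against 3 months (standard error 0.234, adjusted p = 0.356 in limma). Of 11 other Nrf2 targets, Osgin1, an oxidative stress-induced growth inhibitor, stood at 0.63 for 11-12 against 3 months over both genotypes (adjusted p = 0.419 in limma). Of 13 selenoprotein genes, Selenoh, a nuclear selenoprotein, stood at -0.56 in J20 against WT at 11-12 months (adjusted p = 0.70 in limma). Among 9 regulators of Nrf2, Cul3, which with Keap1 marks Nrf2 for degradation, had the smallest p, at 0.30 in WT at 11-12 against 3 months (adjusted p = 0.993 in limma). Among 10 genes of NADPH supply it was Nadk, the kinase that makes NADP (0.19 for 5-6 against 3 months, adjusted p = 1.0 in limma). Among 6 sources of superoxide and peroxide it was Cyba, a subunit of the phagocyte oxidase (-0.42 in J20 against WT at 11-12 months, adjusted p = 0.70 in limma).

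Where a gene had several tested probes, they moved together for some genes and not for others. For 14 members 20 pairs of probes could be compared over the 24 arrays, with a median r of 0.61, and 14 pairs passed an adjusted permutation p of 0.05, 12 of them with a positive r. A gene with more tested probes gave more pairs, such as Txnl4a with 4 probes. Txnrd2 (r = 0.93) and Gpx8 had close pairs, and Srxn1 and Gstm1 had pairs of opposite direction. A pair each of Mgst3, Txndc11, Gstm2 and Prdx2 had r = 0.12, 0.04, 0.06 and 0.05. The direction of a value can depend on the probe, as for Srxn1, Gstm1, Gss, Mgst3 and Txndc11.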

How the data were processed

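Total RNA of 24 choroid plexus samples, 1 mouse each, was measured on Illumina BeadChips (3 slides of 8 arrays). Per the file headers, the deposited table of raw values holds an intensity and a detection p-value for each of 25697 probes and each array, before normalization. A second deposited table holds log2 values by the authors, which equalled the quantile-normalized log2 of those intensities within 5e-09 and had a column median of 7.299. The software the authors used to extract intensities is not given in the sources used here.

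Intensities were background-corrected, quantile-normalized and put on the log2 scale with neqc (offset 16) in limma 3.58.1 under R 4.3.3. Probes with a detection p-value under 0.01 on at least 3 arrays were tested (11464, of which 10825 carry a symbol), and 1719 probes in the file have no symbol. One limma fit of 6 group means over 24 arrays gave moderated tests, with Benjamini-Hochberg adjustment over all tested probes and a threshold of 0.05. It was checked on simulated data. Correlations used 100000 permutations over all 24 arrays, without regard to BeadChip. Named genes are the 2 of smallest p in each comparison plus main enzymes of each role. Where the groups of a gene are described as not overlapping, the share of all probes that do the same was not counted. Members and lists were chosen with earlier results of these data known. Mean raw intensity per array was 358.4 to 765.4, and 34.97% to 41.64% of probes were detected. Alternatives were other offsets and scalings, probe filters, blocks, weights, covariates, probe means and each array left out. Animals are separate samples.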

Additional observations from a re-analysis of the deposited data

Results flagged for a closer look

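Of 192 groups of 4 to 6 animals tested for a sample far from the others (Dixon's criterion), 8 held one, and chance gives about 5%. Gclm stood at 8.11 in WT 11-12-month animal 12, against 8.74 to 8.95 in the other 5. Gsta3 stood at 8.04 in WT 5-6-month animal 3, against 7.34 to 7.44 in the others. Gstm6 stood at 6.09 in WT 5-6-month animal 17, against 6.60 to 6.61. Mgst1 stood at 10.79 in J20 3-month animal 9, against 11.25 to 11.33. In J20 5-6-month animal 18 Txn2 stood at 9.76, against 9.09 to 9.17, and Txndc11 at 5.74, against 6.33 to 6.42. Txndc11 also stood at 5.73 in J20 3-month animal 2, against 6.09 to 6.13. Txnl4a stood at 10.35 in WT 11-12-month animal 26, against 10.54 to 10.66. All values are log2 intensities.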

How the results depend on the processing

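Counts of members past the threshold moved in 3 of 489 recomputed values. With array weights 1 member passed for J20 against WT at 11-12 months (Srxn1, log2 difference 0.361) and 3 for 11-12 against 3 months over both genotypes (Gsta3 0.51, Txnrd3 -0.437 and Txndc11 0.597). With each array left out in turn that last count ran from 0 to 1, the 1 being Gsta3 (0.758) without J20 3-month animal 23. Median differences of members kept within the spread in 446 of 455 values. Under median scaling they were 0.0846 (J20 against WT at 3 months), -0.2445 (at 11-12 months), -0.2981 (J20, 11-12 against 3 months), -0.2425 (J20, 11-12 against 5-6 months), -0.1238 (both genotypes, 11-12 against 3 months) and -0.1133 (both, 11-12 against 5-6 months), while the medians of all probes stood at 0.1068, -0.2302, -0.2626, -0.1972, -0.0973 and -0.0839. The J20 median for 11-12 against 3 months was 0.031 with signal strength as a covariate and ran from -0.0691 to 0.0303 with arrays left out, and the WT median for 5-6 against 3 months ran from -0.0229 to 0.0698. Srxn1 at 11-12 months changed sign under median scaling (-0.008) and with the mean over its probes (-0.08), as it did over the 3 ages with that mean (-0.002). The cause was not tested. Of single members 1110 of 1117 values kept direction and side of the threshold. Signal near background limits Txn1, Gstm6, Gsto2 and Txndc9. No paired analysis was possible because the animal numbers are not shared between groups.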
